A study of Mus musculus with 19 samples.

Results

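Insulin, IGF-I and IGF-II act through receptor tyrosine kinases and pass their signal to phosphoinositide 3-kinase (PI3K), and 10 genes of this system were followed through 19 mouse mammary tumours. The 10 are the receptor genes Insr, Igf1r and Igf2r, the ligand genes Igf1 and Igf2, the docking protein genes Irs1 and Irs2, the PI3K regulatory subunit genes Pik3r1 and Pik3r3, and the adaptor gene Grb10. They were chosen by gene symbol, with the probe set of the highest mean for a gene with more than 1, and all 10 were among the 14231 genes tested. Every tumour came from the MMTV-NIC model, in which the mouse mammary tumour virus promoter drives an activated ErbB2 (Neu) and Cre recombinase from the same transcript in mammary epithelium. The controls carry this transgene and are labelled NIC WT (n = 5). The others carry floxed integrin alleles as well, itgb1 fl/fl (Itgb1 knockouts, n = 4), itgb3 fl/fl (Itgb3 knockouts, n = 4) or both (labelled double knockouts, n = 6). Cre was driven in the epithelium, so stromal cells were not its target. Whether they kept their integrin genes was not measured in these whole-tumour profiles. Neither ages nor the animal behind each tumour were given in the sources used here. The sample titles give each tumour its own identifier. Replicate numbers used below are not from the labels and only count the tumours of a group in the order of the deposited samples. Whether any tumours shared an animal is not known, and the p-values treat the arrays as independent. The variation among arrays that they reflect may be partly technical.

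Whole-transcript arrays were run on total RNA of flash-frozen tumours at end burden. Values below are the deposited log2 intensities, on which a difference of 1 is a doubling. Precision depends on how many arrays a group has and on how far a gene varies within groups. Epithelial genes were high in all groups: mean log2 intensities over all arrays were 10.20 for Krt8, 11.41 for Krt18 and 11.32 for Epcam. The basal keratin gene Krt14 and Trp63 did not pass the intensity filter (a log2 value of 4.38 on at least 4 arrays). The targeted gene Itgb1 averaged 10.16 in controls, 8.70 after its own deletion, 10.04 in Itgb3 knockouts and 8.32 with both genes floxed. Itgb3 averaged 8.12, 8.24, 7.01 and 8.13 in the same order, so it was not lower in the labelled double knockouts, and every direction given for that group carries this limit.

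The insulin receptor and the type 1 IGF receptor are related tyrosine kinases. After binding ligand they phosphorylate IRS1 and IRS2, which recruit the regulatory subunits of PI3K and so bring the catalytic subunit to the membrane. The IGF2 receptor, also the mannose 6-phosphate receptor of lysosomal sorting, lacks kinase activity and clears IGF-II. GRB10 binds the active receptors and restrains them, and Igf2, Igf2r and Grb10 are textbook imprinted genes. In ErbB2-driven mammary cancer PI3K is a main route downstream of the oncogene as well.

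None of the 10 genes passed in any of the 8 comparisons made with limma at a Benjamini-Hochberg adjusted p of 0.05 over all genes. In the Itgb1 knockouts against control 0 of 10 passed beside 0.00703% of all genes, and 0 of 10 had an unadjusted p below 0.05 beside 4.86%. The counts were 0 passed (0% of all genes) and 1 at the unadjusted level (6.14%) in the Itgb3 knockouts, and 0 passed (0.386%) and 2 unadjusted (16.9%) in the labelled double knockouts. The labelled double knockouts against the Itgb1 knockouts gave 0 (0.0211%) and 1 (12.3%), and against the Itgb3 knockouts 0 (2.87%) and 2 (21.1%). Itgb3 against Itgb1 knockouts gave 0 (0%) and 1 (4.55%). For the interaction, the double knockout difference less both single knockout differences, the counts were 0 (0%) and 0 (12.5%). The last comparison set the mean of the 2 groups with floxed Itgb1 against the mean of the other 2 and gave 0 (0.0351%) and 1 (13.8%). With 10 genes a share moves in steps of 1 gene in 10, and the counts at the unadjusted level stayed within 2 of 10. No gene of the 10 had groups that did not overlap in any of the 6 pairwise comparisons, where the shares of all genes were 1.18% and 2.35% for the Itgb1 and Itgb3 knockouts against control and 1.79% for the labelled double knockouts. They were 2.69% and 8.95% for the labelled double knockouts against the Itgb1 and Itgb3 knockouts, and 3.87% between the single knockouts.

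**Figure D1:**
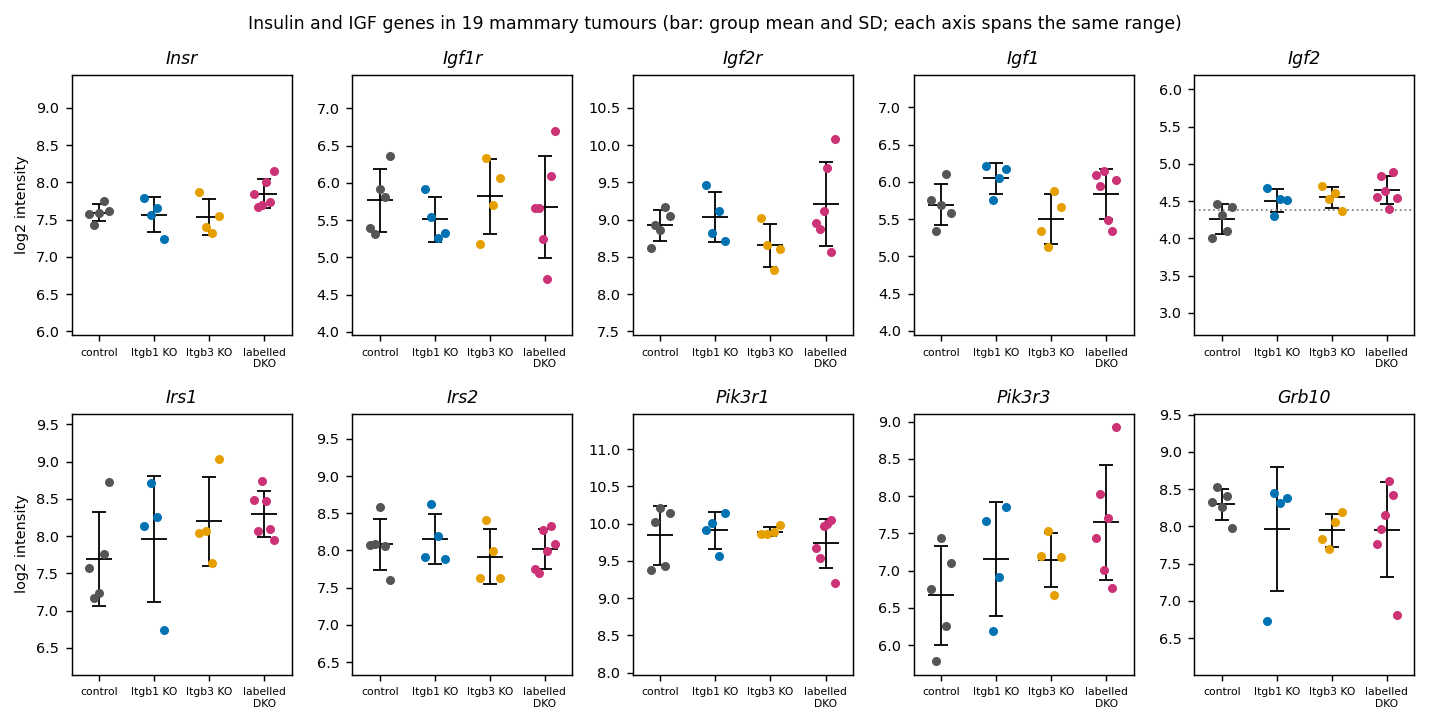
Log2 intensity (vertical axis) of each of the 10 genes in the 4 groups, 1 point per tumour, with the group mean and SD as bars; the dotted line for Igf2 is the intensity filter. The groups overlap for every gene, and Igf1r, Irs1, Pik3r3 and Grb10 spread more within groups than Insr and Igf2.

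Relative to control, the median log2 difference of the 10 genes was 0.09 in the Itgb1 knockouts (7 above 0), −0.0026 in the Itgb3 knockouts (5 above 0) and 0.20 in the labelled double knockouts (6 above 0). Over all genes tested the medians were 0.02, −0.01 and 0.03. These comparisons share the same 5 controls.

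**Figure D2:**
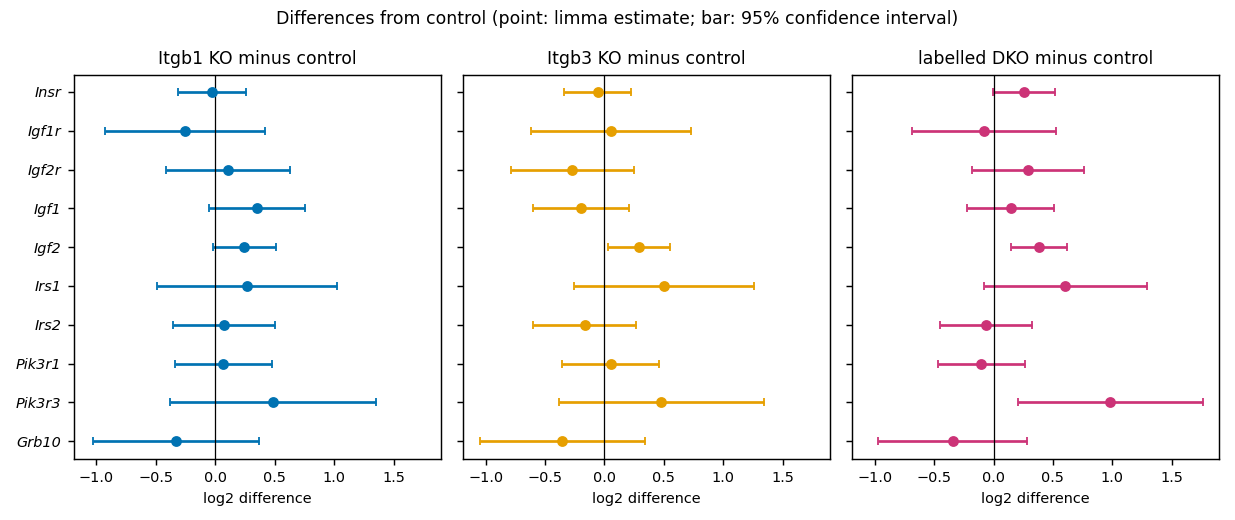
Log2 difference from control (horizontal axis, the same range in each panel) for the 10 genes in the Itgb1 knockouts, the Itgb3 knockouts and the labelled double knockouts; points are limma estimates and bars 95% confidence intervals. The interval leaves out 0 for Igf2 in the Itgb3 knockouts and for Igf2 and Pik3r3 in the labelled double knockouts, before any adjustment over genes.

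Among the receptors, Insr, which encodes the insulin receptor, had the narrowest spread. Its log2 level was 7.58, 7.43, 7.59, 7.76 and 7.62 in the controls. It was 7.80, 7.56, 7.66 and 7.25 in the Itgb1 knockouts and 7.87, 7.40, 7.32 and 7.55 in the Itgb3 knockouts. In the 6 labelled double knockouts it ran from 7.67 to 8.15 with a median of 7.79. All 6 lay above the control median and 3 above every control, so the groups overlapped. The difference from control was 0.26 (SE 0.123, 95% interval −0.0025 to 0.51, limma adjusted p = 0.301), and 0.20 without labelled double knockout replicate 6. Against the Itgb3 knockouts it was 0.31 (SE 0.131, limma adjusted p = 0.181). That difference passed under 1 alternative, with each array centred on its median (0.42, limma adjusted p = 0.0463), where the median of all genes moves up by 0.11 in this comparison. In the single knockouts Insr differed from control by −0.03 (Itgb1) and −0.06 (Itgb3).

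Igf2r followed Insr from tumour to tumour. Of the 14230 other genes measured, Igf2r had the second strongest correlation with Insr (Pearson r = 0.81, Spearman rho = 0.73 over 19 tumours). It was 0.81 on deviations from the group means and 0.75 without the 2 tumours whose Insr level lay farthest from the median. This pair was singled out after its values were seen and is given as a description without a test. The level of Igf2r was 8.93 ± 0.21 (SD, n = 5) in the controls, 9.03 ± 0.34 (n = 4) in the Itgb1 knockouts and 8.66 ± 0.29 (n = 4) in the Itgb3 knockouts. In the labelled double knockouts it was 9.22 ± 0.56 (n = 6, from 8.56 to 10.08). The labelled double knockouts exceeded the Itgb3 knockouts by 0.56 (SE 0.239, limma adjusted p = 0.187), a value of 0.39 without labelled double knockout replicate 6. Against control the difference was 0.29 (SE 0.224), and 0.12 without that tumour.

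Igf1r, the receptor that binds both IGFs, did not follow Insr (r = 0.06). Its within-group SD of 0.52 stood at the 92.7th percentile of all genes, where that of Insr (0.20) stood at the 29.2nd. The labelled double knockouts alone spanned 4.71 to 6.70, which held the lowest and the highest of all 19 values. Group means were 5.82 in the Itgb3 knockouts, 5.76 in the controls, 5.68 in the labelled double knockouts and 5.51 in the Itgb1 knockouts, and no neighbours in this order differed beyond their spread. The interval of the difference from control was −0.93 to 0.42 in the Itgb1 knockouts, −0.62 to 0.73 in the Itgb3 knockouts and −0.69 to 0.52 in the labelled double knockouts. A change in either direction within those bounds was not resolved.

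Igf1 encodes IGF-I, a growth factor that mesenchymal cells of the mammary gland supply to the epithelium. Its level was 5.75, 5.34, 5.69, 6.11 and 5.58 in the controls and 6.21, 5.76, 6.05 and 6.18 in the Itgb1 knockouts. It was 5.34, 5.12, 5.88 and 5.66 in the Itgb3 knockouts and 5.33 to 6.14 (median 5.99) in the labelled double knockouts. The Itgb1 knockouts held the highest group mean and the Itgb3 knockouts the lowest, and all groups overlapped the controls. The largest difference, −0.55 for Itgb3 against Itgb1 knockouts (SE 0.203, unadjusted p = 0.0143 in limma), had an adjusted p of 0.996. With Itgb1 floxed against intact it was 0.35 (SE 0.134, limma adjusted p = 0.27).

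The level of Igf1 followed stromal marker genes from tumour to tumour. Of 90 correlations between the 10 genes and 9 cell type marker lists, 2 passed after adjustment over the 90, both for Igf1. With the summed intensity of 18 fibroblast markers, Pearson r was 0.78 (permutation p = 5e-05, adjusted 0.0045) and Spearman rho 0.77 (permutation p = 0.00019, adjusted 0.00855) over 19 tumours. With 13 endothelial markers r was 0.70 (permutation p = 0.00094, adjusted 0.0423) and rho 0.81 (permutation p = 4e-05, adjusted 0.0036). Without the 2 tumours with the most extreme marker sums r was 0.75 and 0.73. On deviations from group means it was 0.76 and 0.72, and within the 6 labelled double knockouts 0.75 and 0.79. With adipocyte and with pericyte and smooth muscle sums r was 0.52 and 0.50 (permutation p = 0.0238 and 0.0268, both adjusted 0.253). With the mean log2 level of the markers in place of their sum, r was 0.74 for adipocyte markers. It was then 0.79 for fibroblast and 0.68 for endothelial markers. The genes most like Igf1 across the tumours were Mrc1, the mannose receptor of macrophages (r = 0.86), Sparc, a matrix glycoprotein (r = 0.84), and the matrix protease gene Mmp3 (r = 0.84). With the sum of 15 macrophage markers, Mrc1 among them, r was 0.45 and rho 0.44 (adjusted permutation p of 0.282 and 0.547). In bulk RNA, fewer cells of a type and less RNA per cell cannot be told apart.

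The log2 fibroblast sum, over 18 of 18 markers, was 10.97 to 11.96 in the controls and 11.32 to 11.85 in the Itgb1 knockouts. It was 9.68 to 11.93 in the Itgb3 knockouts, lowest in replicate 2, and 10.73 to 12.42 in the labelled double knockouts. The endothelial sum, over 13 of 13 markers, ran from 10.29 to 10.86, 10.48 to 10.92, 10.24 to 10.49 and 10.36 to 11.16 in the same order. Beyond the covariate fit, which held no endothelial score, the part of these cells in the group differences of Igf1 was not tested. In that fit, with fibroblast and adipocyte scores as covariates, Igf1 differed by −0.20 between the Itgb3 and Itgb1 knockouts.

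**Figure D3:**
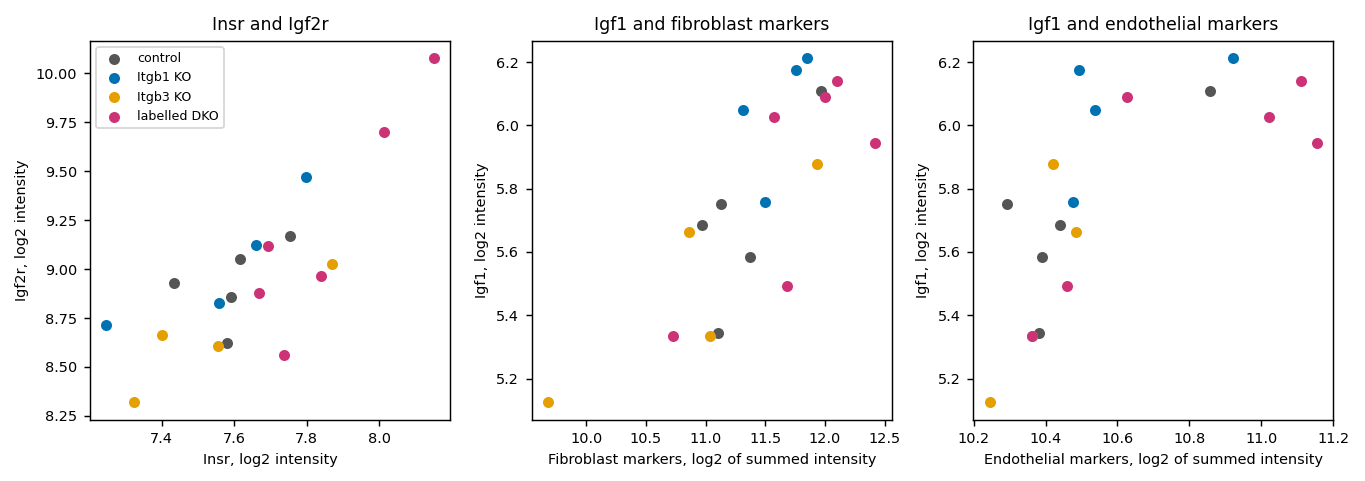
Left, Igf2r against Insr (log2 intensities); middle and right, Igf1 (log2 intensity) against the log2 summed intensity of fibroblast and of endothelial markers; 1 point per tumour, coloured by group. Igf2r rises with Insr (r = 0.81) and Igf1 with the marker sums (r = 0.78 and 0.70), with tumours of each group spread along the trend.

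Igf2, the fetal growth factor gene, lay at the edge of detection. Its level was 4.01, 4.46, 4.31, 4.10 and 4.42 in the controls, 4.67, 4.30, 4.53 and 4.52 in the Itgb1 knockouts and 4.70, 4.53, 4.61 and 4.37 in the Itgb3 knockouts. The labelled double knockouts ran from 4.40 to 4.89 with a median of 4.60. Of the 19 values 5 were below the intensity filter of 4.38, and 3 of those were controls. Of the 6 labelled double knockouts, 5 lay above every control. The difference from control was 0.38 (SE 0.114, 1.30-fold, limma unadjusted p = 0.00339), the smallest p of the 10 genes against control, and the adjusted p was 0.117 (0.085 to 0.218 over the fits without 1 tumour). Differences of 0.24 and 0.29 in the Itgb1 and Itgb3 knockouts had the same direction from the same controls. At this signal the size of a change is not well measured.

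IRS1 and IRS2 are the main docking proteins of these receptors, and the promoters of their genes share letters. The 250 bases before the RefSeq start of each (GRCm38.p6) are shown with the E-box CACGTG and the core TGTTTTG of insulin response elements, which FoxO factors are known to bind, in capitals. Irs1 lies at chr1:82291440-82291689 and Irs2 at chr8:11008930-11009179, both on the minus strand. Igf2r, at chr17:12769707-12769956 on the minus strand, is shown for its E-boxes.
Irs1: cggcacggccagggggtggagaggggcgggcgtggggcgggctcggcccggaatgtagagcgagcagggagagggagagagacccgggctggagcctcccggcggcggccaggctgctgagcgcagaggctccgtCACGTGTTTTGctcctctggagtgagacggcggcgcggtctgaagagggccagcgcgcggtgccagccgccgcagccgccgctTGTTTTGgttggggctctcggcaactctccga
Irs2: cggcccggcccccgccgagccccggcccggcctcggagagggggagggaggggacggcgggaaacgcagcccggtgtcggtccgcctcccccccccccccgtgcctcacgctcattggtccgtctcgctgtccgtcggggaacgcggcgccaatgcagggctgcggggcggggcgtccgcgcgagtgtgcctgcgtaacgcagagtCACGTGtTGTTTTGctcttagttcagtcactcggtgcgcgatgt
Igf2r: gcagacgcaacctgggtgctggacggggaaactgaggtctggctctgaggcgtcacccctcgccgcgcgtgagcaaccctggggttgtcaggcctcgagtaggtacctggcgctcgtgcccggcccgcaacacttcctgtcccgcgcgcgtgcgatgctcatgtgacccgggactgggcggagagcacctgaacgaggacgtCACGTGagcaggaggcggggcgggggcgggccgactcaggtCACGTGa
Searched on both strands, CACGTG was found in 6.02% and TGTTTTG in 5.56% of 32851 promoter windows of the same length, and both in 0.295%. Windows were at hand for 9 of the 10 genes (all but Insr, 16 windows), and 2 of the 9 genes, Irs1 and Irs2, held both. In Irs1 the E-box starts at position −115 and the first TGTTTTG at −111, so they overlap, with a second TGTTTTG at −32. In Irs2 they start at −44 and −37, 5′ to 3′ in the same order. Igf2r held CACGTG at −48 and −7. A match is a description of these letters, and no binding was measured here.

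The levels of Irs1 and Irs2 did not vary together (r = −0.17 over 19 tumours). The level of Irs1 was 7.57, 7.17, 7.24, 7.76 and 8.73 in the controls. It was 8.14, 8.71, 8.26 and 6.74 in the Itgb1 knockouts, 8.04, 8.07, 7.63 and 9.04 in the Itgb3 knockouts and 7.95 to 8.73 (median 8.28) in the labelled double knockouts. All 6 labelled double knockouts lay above the control median, and control replicate 5 lay among them. The difference from control was 0.61 (SE 0.327, 95% interval −0.08 to 1.29, limma adjusted p = 0.356) and ranged from 0.47 to 0.86 without any 1 tumour. A second, dimmer Irs1 probe set, with a mean of 4.48 over the arrays, differed by 0.05. Irs2 ran from 7.61 to 8.62 over all tumours and differed from control by 0.07, −0.17 and −0.06 in the Itgb1, Itgb3 and labelled double knockouts (SE 0.206, 0.206 and 0.186).

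Irs1 varied with the genes beside it on chromosome 1. The 3 genes most like it were Mnt, which encodes an antagonist of MYC (r = 0.75), and Mff (r = 0.73) and Rhbdd1 (r = 0.70), which lie 3 and 1 measured genes away. Of the 20 nearest measured genes, 10 on either side, 7 had r above 0.5, compared with 1.32% of the 13424 genes on other chromosomes. These were Epha4 (0.57), Ap1s3 (0.56), Wdfy1 (0.65), Cul3 (0.67), Rhbdd1, Mff and Agfg1 (0.64). The median r of the 20 neighbours was 0.32, and 0.24 on deviations from group means, beside −0.02 for genes on other chromosomes. For the other 9 members 0 or 1 neighbours had r above 0.5. This set was chosen after the values were seen and has no test.

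**Figure D4:**
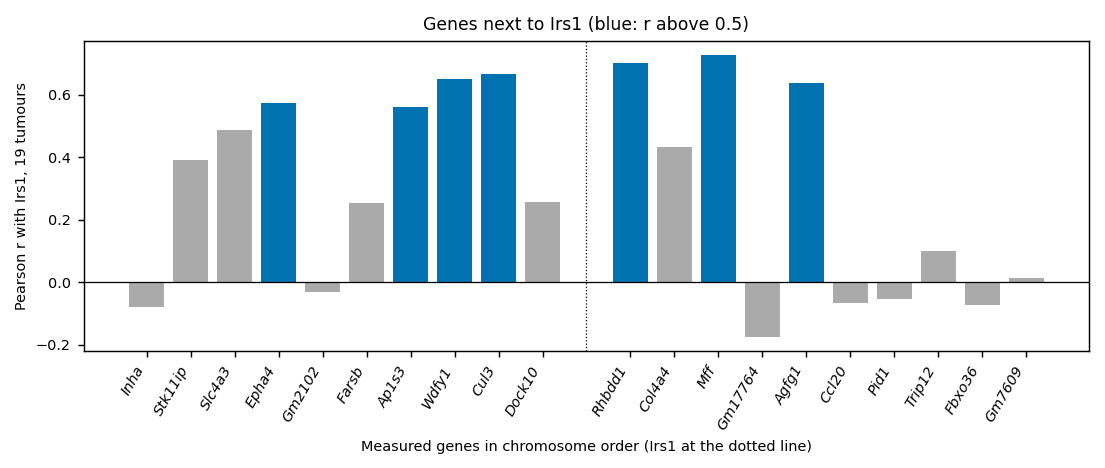
Pearson r with Irs1 over 19 tumours (vertical axis) for the 10 measured genes on either side of it in chromosome order (horizontal axis); blue bars have r above 0.5. The 7 blue bars lie within 7 measured genes of Irs1, mixed with genes near 0.

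Pik3r3 encodes p55-gamma, a regulatory subunit of PI3K, and showed the largest difference of the 10 genes. Its level was 6.75, 5.79, 7.44, 6.25 and 7.10 in the controls and 7.66, 6.18, 6.91 and 7.85 in the Itgb1 knockouts. It was 7.19, 7.54, 6.67 and 7.18 in the Itgb3 knockouts and 6.77 to 8.92 (median 7.57) in the labelled double knockouts. All 6 labelled double knockouts lay above the control median and 4 above every control. The difference was 0.98 (SE 0.372, 1.97-fold, 95% interval 0.20 to 1.76), with a limma unadjusted p of 0.0163 and an adjusted p of 0.193. It was 0.73 without labelled double knockout replicate 6, the highest tumour. The Itgb1 and Itgb3 knockouts differed from the same controls by 0.49 and 0.48 (SE 0.412 for both). The interaction was 0.02 (SE 0.572). Within groups Pik3r3 had an SD of 0.68, at the 96.4th percentile of all genes. The genes most like it were Dnajb11, a chaperone gene of the endoplasmic reticulum (r = 0.92), the calcium channel gene Orai1 (r = 0.88) and Zw10, a gene of the mitotic checkpoint (r = 0.88), over the 19 tumours.

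Pik3r1 encodes p85-alpha, the main regulatory subunit, and did not move with Pik3r3 (r = −0.25). It ran from 9.21 to 10.21 over all tumours, and its differences from control were 0.07, 0.05 and −0.10 (SE 0.194, 0.194 and 0.175) in the Itgb1, Itgb3 and labelled double knockouts. The 95% intervals held changes from −0.47 to 0.47, so a larger change in any knockout group lay outside them.

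Grb10, the adaptor that restrains insulin and IGF receptors, was low in 2 tumours. It was 8.33, 8.53, 8.26, 8.40 and 7.97 in the controls, and 6.73, 8.44, 8.32 and 8.38 in the Itgb1 knockouts. It was 7.84, 7.69, 8.06 and 8.19 in the Itgb3 knockouts and 6.81 to 8.61 (median 8.06) in the labelled double knockouts. The 2 low tumours were Itgb1 knockout replicate 1 (6.73) and labelled double knockout replicate 6 (6.81), and every other tumour lay between 7.69 and 8.61. All 3 differences from control were negative (−0.33, −0.35 and −0.34, SE 0.332, 0.332 and 0.300), from 5 shared controls, and none passed. Without Itgb1 knockout replicate 1 the first was 0.08, and without labelled double knockout replicate 6 the last was −0.12. Grb10 ran opposite to Pik3r3 (r = −0.62, rho = −0.54) and Igf1r (r = −0.56, rho = −0.43), but less so (−0.38 and −0.29) without the 2 tumours farthest from the median of Pik3r3 or of Igf1r.

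Labelled double knockout replicate 6 held the highest value of the 19 for 4 of the 10 genes, Insr, Igf1r, Igf2r and Pik3r3, and the lowest for Pik3r1. No other tumour held more than 2 extremes. Its array had the lowest weight of the 19 in limma (0.589), and a median correlation of 0.973 with the other arrays, where those of all arrays ran from 0.969 to 0.980. The same tumour had the highest log2 sum of 11 pericyte and smooth muscle markers (12.07, the next 11.57) and the lowest of 12 luminal markers (13.55, the next 13.60). Over the 19 tumours the pericyte sum correlated with Insr at r = 0.66 (rho = 0.60, permutation p = 0.0024, adjusted 0.072), the smallest adjusted p of these 4 genes. For Igf1r, Igf2r and Pik3r3 r was 0.48, 0.56 and 0.51 (rho 0.40, 0.37 and 0.19, permutation p = 0.0407, 0.0153 and 0.0281, adjusted 0.282, 0.253 and 0.253). Without the 2 tumours with the most extreme pericyte sums r was 0.52 for Insr, 0.25 for Igf1r, 0.29 for Igf2r and 0.0035 for Pik3r3. All 4 relations were thus weaker without those tumours, and that of Pik3r3 was lost. On deviations from group means r was 0.46, 0.66, 0.41 and 0.40 in the same order. For Pik3r1 the pericyte r was −0.52 (permutation p = 0.0207, adjusted 0.253), and −0.12 without those 2 tumours. Igf2r also rose with the endothelial sum (r = 0.52, rho = 0.54, permutation p = 0.0224, adjusted 0.253). That r was 0.71 without the 2 tumours with the most extreme endothelial sums, and 0.34 on deviations from group means. With the luminal sum Igf2r had r = −0.46 (permutation p = 0.0469, adjusted 0.282). The part of these cell types in the levels of these genes was not tested.

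Other genes of the pathway and other imprinted genes were followed through 7 lists with 116 measured genes of 139. The 16 measured imprinted genes make up 1 list, chosen for imprinting and not for a place in the pathway. All lists were chosen with earlier results of these data known, so the shares below are descriptions. In the labelled double knockouts against control 1 gene rose and 0 fell (0.862% beside 0.386% of all genes). It was Rptor, which encodes Raptor, the scaffold of the growth kinase complex mTORC1. Its level was 7.64, 7.88, 8.04, 7.63 and 7.61 in the controls, 7.87, 7.61, 7.87 and 7.71 in the Itgb1 knockouts, and 7.51, 7.58, 7.46 and 7.69 in the Itgb3 knockouts. The labelled double knockouts ran from 8.08 to 8.57 (median 8.37), so all 6 lay above the other 13 tumours, as was true of 0.295% of all genes. The difference was 0.58 (SE 0.108, limma adjusted p = 0.0235). Against the Itgb1 knockouts it was 0.58 (limma adjusted p = 0.0851), and against the Itgb3 knockouts 0.79 (SE 0.115, limma adjusted p = 0.00346), a call kept in all 26 alternatives. The call against control was lost (limma adjusted p of 0.058 to 0.145) without control replicate 1 (0.55) or 4 (0.55), without labelled double knockout replicate 1 (0.56) or 2 (0.55), and with only those 2 groups in the fit (0.58).

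Against the Itgb3 knockouts, 7 of the 116 genes rose in the labelled double knockouts and 0 fell (6.03% beside 2.87% of all genes). Besides Rptor they were Igfbp4, which encodes an IGF binding protein (1.13, limma adjusted p = 0.014), the docking protein gene Gab2 (0.93, adjusted p = 0.0293) and Inpp5d, the gene of the lipid phosphatase SHIP1 of blood cells (0.88, adjusted p = 0.0163). The others were Pik3r5, a regulatory subunit of PI3K gamma (0.66, adjusted p = 0.032), Pik3ap1, the B cell adaptor for PI3K (0.71, adjusted p = 0.0337), and the imprinted gene Impact (0.77, adjusted p = 0.0493). With fibroblast and adipocyte covariates the genes called in this comparison fell from 408 to 19 over all genes. Rptor kept the call (0.81) in that fit and the other 6 lost it. Their differences were then 0.74 for Igfbp4, 0.91 for Gab2, 0.85 for Inpp5d, 0.46 for Pik3r5, 0.55 for Pik3ap1 and 0.71 for Impact (limma adjusted p from 0.103 to 0.219). Gab2, Pik3r5 and Pik3ap1 also lost the call without any 1 of the Itgb3 knockouts or without labelled double knockout replicate 1 or 2. Over all fits without 1 tumour their differences ran from 0.83 to 1.07, 0.60 to 0.73 and 0.59 to 0.82. Inpp5d lost it without Itgb3 knockout replicate 1 (0.77) or 4 (0.89). Impact lost it under most alternatives and ran from 0.55, without Itgb3 knockout replicate 1, to 0.95. Markers of several stromal cell types were higher in the same comparison. The median log2 difference was 0.83 for 18 fibroblast markers (18 above 0, 1 called), 0.57 for 15 macrophage markers (15 above 0, 3 called), 0.43 for 11 pericyte and smooth muscle markers (11 above 0, 0 called) and 0.35 for 13 endothelial markers (13 above 0, 0 called). The summed levels overlapped between the groups. The log2 fibroblast sum was 10.73 to 12.42 in the labelled double knockouts and 9.68 to 11.93 in the Itgb3 knockouts, and the macrophage sum 11.72 to 12.86 and 11.85 to 12.04. The pericyte sum was 10.84 to 12.07 and 10.55 to 11.05, and the endothelial sum 10.36 to 11.16 and 10.24 to 10.49. The median of 10 adipocyte markers was 0.04 (5 above 0, 1 called). The covariate fit held fibroblast and adipocyte scores only, so it did not cover macrophages, pericytes or endothelium. Beyond that fit, the part of these cells was not tested. In the other 6 comparisons 0 of the 116 passed in limma. Against control, 7 of the 116 had an unadjusted p below 0.05 in Itgb1 knockouts (beside 4.86% of all genes), 5 in Itgb3 knockouts (6.14%) and 25 in labelled double knockouts (16.9%). There were 20 (12.3%) for double against Itgb1 knockouts, 34 (21.1%) for double against Itgb3 knockouts and 5 (4.55%) for Itgb3 against Itgb1 knockouts. The interaction gave 21 (12.5%) and Itgb1 floxed against intact 24 (13.8%). Because earlier results were known when the lists were chosen, a share above that of all genes is no test of the pathway.

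By list, the median log2 differences of the labelled double knockouts from control were 0.07 for 13 other PI3K subunits and regulators, 0.09 for 18 adaptors, 0.24 for 12 phosphatases, 0.09 for 22 AKT and mTOR genes, 0.03 for 20 FoxO factors and targets, −0.06 for 15 genes of IGF binding and 0.17 for 16 imprinted genes. The median of all genes was 0.03. Of the 2 genes with the smallest p in each list, those not named above were Pik3c2b (0.74, limma adjusted p = 0.0719), Sh2b3 (0.25), Inpp4a (0.44), Sgk3, a kinase related to AKT (0.76), the FoxO target gene Klf2 (0.43), Foxo4 (0.33), Igfbp7 (0.55) and the imprinted gene Mest (1.14), with adjusted p-values from 0.0719 to 0.357, so none passed.

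**Figure D5:**
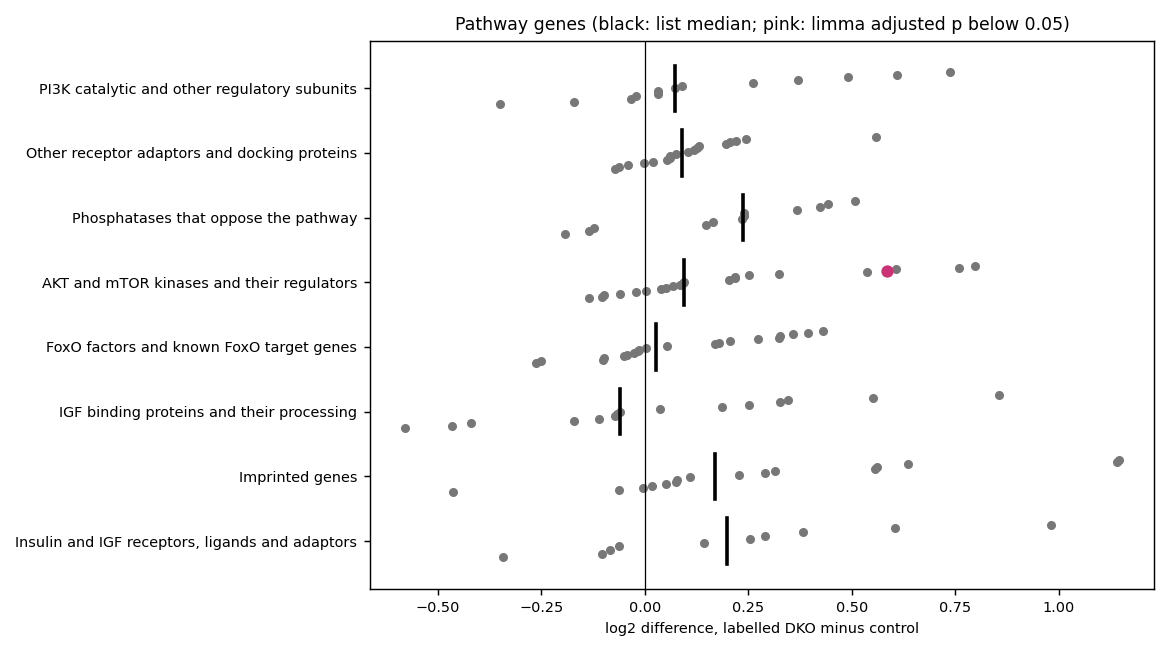
Log2 difference of the labelled double knockouts from control (horizontal axis) for each measured gene of the 7 lists, 1 of them of imprinted genes, and of the 10 genes. Black bars are list medians and the pink point is Rptor, the 1 gene past an adjusted p of 0.05. List medians run from −0.06 to 0.24.

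The remaining most alike genes by Pearson r over the 19 tumours were as follows. For Insr, beside Igf2r, they were the spermine oxidase gene Smox (0.83) and Atrnl1 (0.80). Those of Igf1r were the glypican gene Gpc2 (0.82), Snhg11 (0.77) and Agap3 (0.75). Those of Igf2r were Megf6 (0.86), the giant cadherin gene Fat1 (0.84) and Fndc3b (0.83). Slc66a1 (0.85), Prrg2 (0.80) and B3gat2 (0.78) were nearest to Igf2, and Zfp688 (0.80), Lcn12 (0.79) and the receptor phosphatase gene Ptprj (0.78) to Irs2. Pik3r1 had Siglech (0.79), a marker of plasmacytoid dendritic cells, Tcea2 (0.75) and Zbtb21 (0.75). Grb10 had Rps26 (0.83), Lta4h (0.81) and Mpdu1 (0.80), the last with a Spearman rho of only 0.38. All these points share the same 19 arrays, and a likeness is a description.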

How the data were processed

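Total RNA of 19 tumours was hybridised to Affymetrix whole-transcript arrays. The authors deposited 1 log2 value per probe set and array, made with Affymetrix Expression Console per the submitters' processing notes; their background correction and normalization were not given in the sources used here. Of 41345 probe sets, 23521 carried 1 gene symbol, 1814 several and 16010 none, and only the first were used, with the probe set of the highest mean per gene. Genes reaching 4.38, the median over the whole table, on 4 or more arrays were tested, 14231 in all. limma 3.58.1 (R 4.3.3) was fitted to all 19 arrays with 1 mean per group, 8 contrasts and Benjamini-Hochberg adjustment over all genes (threshold 0.05). In simulated double knockouts against control, limma recovered 84% of genes changed by 1 log2 unit and 99% of those changed by 2. There were 10 false calls among the unchanged of the 14231 genes. The changed genes were drawn at random with independent noise, so these shares are not the power for the 10 members. The largest member difference from control was 0.98. Marker correlations used 100000 permutations, two-sided. Named genes were all 10 members, the targeted genes, pathway genes past the threshold or the 2 of each list with the smallest p in the double knockout, and the 3 genes with the highest r to each member, leaving out predicted and small RNA genes. Members and lists were chosen with earlier results of these data known. Alternatives were scaling, filter, array weights, samples in the fit, probe set choice, stromal covariates and leaving out each array.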

Additional observations from a re-analysis of the deposited data

Results flagged for a closer look

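Of 40 sets of values (10 genes in 4 groups) 1 held a tumour far from the others of its group: Grb10 in Itgb1 knockout replicate 1, at a log2 level of 6.73, where the other 3 lay between 8.32 and 8.44. The gap was 0.926 of the group's whole range, above Dixon's critical value of 0.829. Chance gives about 1 such value in 20 groups. The same tumour had the highest Igf1 level of all 19.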

How the results depend on the processing

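Over all alternatives, 2059 of 2060 member values kept their side of the threshold. The exception was Insr in the labelled double knockouts against the Itgb3 knockouts with each array centred on its median, which brought the members called there from 0 to 1, and the smallest adjusted p elsewhere was 0.084 in limma. The sign changed in 117 values, 6 of them with a main difference over 0.2. Genes called for the labelled double knockouts against control (55) numbered 27 with no filter, 100 with centred arrays, 31 with quantile normalization, 31 with array weights, 35 with covariates and 2 with only those groups in the fit, and 14 to 125 without any 1 array. Against the Itgb3 knockouts (408) they numbered 1220 with centred arrays, 232 with quantile normalization, 1568 with array weights and 19 with covariates, and 56 to 459 without any 1 array. Correlations with marker scores past the threshold were 2, and 3 with mean log2 scores. The causes were not tested. No paired analysis was possible because the labels carry no replicate numbers. Signal over background limits Igf2.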
